A study of Drosophila melanogaster with 20 samples.

Results

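The circadian clock genes and Pdf were followed as 10 of the 17558 genes in the count table. They were taken by FlyBase ID for the symbols Clk, cyc, per, tim, cwo, vri, Pdp1, cry, Pdf and to. All 10 passed the filter of a mean normalized count above 10, as did 10544 genes in all. RNA-seq of total RNA had been done on whole heads of adult flies, males and females together, 1 day after eclosion at 25 °C on food based on apple juice. Each of 4 genotypes had 5 libraries. FNE and RBP9 belong to the ELAV family, which binds RNA in neurons, and the comparisons ask how head RNA differs when either or both are missing. The double mutant ΔfneΔrbp9 was fneΔ/fneKOZ2 (females) or fneΔ or fneKOZ2 alone (males), in each case with rbp9P2690/Df(2L)ED206. The fneΔ allele is a deficiency, written Df(1)fneΔ in the study's methods. Δfne had the fne alleles only and Δrbp9 had rbp9P2690 over the deficiency Df(2L)ED206 in both sexes, with w1118 flies as wild type. Per the study's methods, each library pooled heads of males and females in equal number, and the 5 replicates of a genotype were independent. What made them independent (cultures, crosses or days) is not stated, and p-values measure the spread between such pools.

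In the fly clock, CLOCK (Clk) and CYCLE (cyc) form a pair of transcription factors that switch on per, tim, vri, Pdp1 and cwo. PER and TIM accumulate with a delay and shut that pair down, while VRI and PDP1 form a second loop that lowers and raises Clk. Cryptochrome (cry) brings light to the clock by acting on TIM, and the neuropeptide PDF carries its timing from a small set of lateral neurons to the rest of the clock network. In heads under a light-dark cycle the per, tim and vri RNAs are known to crest around dusk, Clk and cry in the opposite phase. The light schedule and the hour at which these heads were taken are not given in the sources used here.

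Library totals were between 10289950 and 25325636 counts, with 10289950 to 18757832 in ΔfneΔrbp9 and 15923472 to 21064462 in wild type. Rbp9 was at 18.3 ± 1.41 CPM in ΔfneΔrbp9, 598.2 ± 27.7 in Δfne, 18.9 ± 1.52 in Δrbp9 and 482.4 ± 29.4 in wild type (SD, n = 5 each), where CPM is the count per 1000000 counts of the scaled library total. The remaining fne signal was 88.1 ± 5.12 CPM in ΔfneΔrbp9 and 86.7 ± 9.11 in Δfne, against 211.4 ± 9.32 in Δrbp9 and 194.3 ± 13.4 in wild type. The white gene w was at 334.4, 245.2 and 127.2 CPM in ΔfneΔrbp9, Δfne and Δrbp9, against 0.21 in wild type, so the mutants also had w RNA that the w1118 stock lacked. The mutations and such differences of genetic background cannot be told apart. The heads carried neuronal RNA, with 6 neuron markers summing to overlapping ranges of 4745 to 4972 CPM in ΔfneΔrbp9, 4569 to 4929 in Δfne, 4522 to 4790 in Δrbp9 and 4616 to 4932 in wild type. The 6 glia markers summed to 3533 to 3712 CPM in ΔfneΔrbp9, 3980 to 4368 in Δfne, 3436 to 3774 in Δrbp9 and 3766 to 4373 in wild type. For glia, the ΔfneΔrbp9 range lay below that of wild type. The part of glia in the member values was not tested. Of 5 germline markers, bam, Mst87F and Mst98Ca were near 0. The marker nos averaged 53.1, 55.5, 52.9 and 56.1 CPM in ΔfneΔrbp9, Δfne, Δrbp9 and wild type. The marker osk averaged 0.05, 2.82, 0.07 and 0.19 CPM in the same order, and its highest Δfne library had 13.98 CPM.

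Differences between genotypes were small for most clock genes. Calls needed both an adjusted p below 0.01 (edgeR's quasi-likelihood F-test, Benjamini-Hochberg over all 10544 genes) and an absolute log2 fold change above 0.5. By that rule 1 of the 10 members, to, was called in ΔfneΔrbp9 against wild type, near the 9.53% of all tested genes that were. None was called in Δfne or in Δrbp9 against wild type, where 8.04% of genes were called in each. In these, 6 and 4 members had an unadjusted p below 0.05, as did 4265 and 4719 of the 10544 genes (edgeR). DESeq2 called 0 and 1 of the members. Without the fold change cutoff, an adjusted p below 0.01 was met by 4 members in ΔfneΔrbp9 (25.0% of all genes), 4 in Δfne (19.1%) and 2 in Δrbp9 (22.9%) of the 10. The libraries of the mutant and the wild type did not overlap for 3, 4 and 2 members, beside 23.2%, 17.5% and 21.3% of all tested genes. The median log2 fold change of the 10 members was −0.04 in ΔfneΔrbp9, −0.09 in Δfne and −0.03 in Δrbp9, beside medians of 0.00, 0.01 and 0.00 over all tested genes. The 3 comparisons share the wild-type libraries, so their values are given side by side and are not independent of each other. Below, a gene is said to have risen or fallen where its adjusted p was below 0.01, and called where the fold change passed as well.

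**Figure D1:**
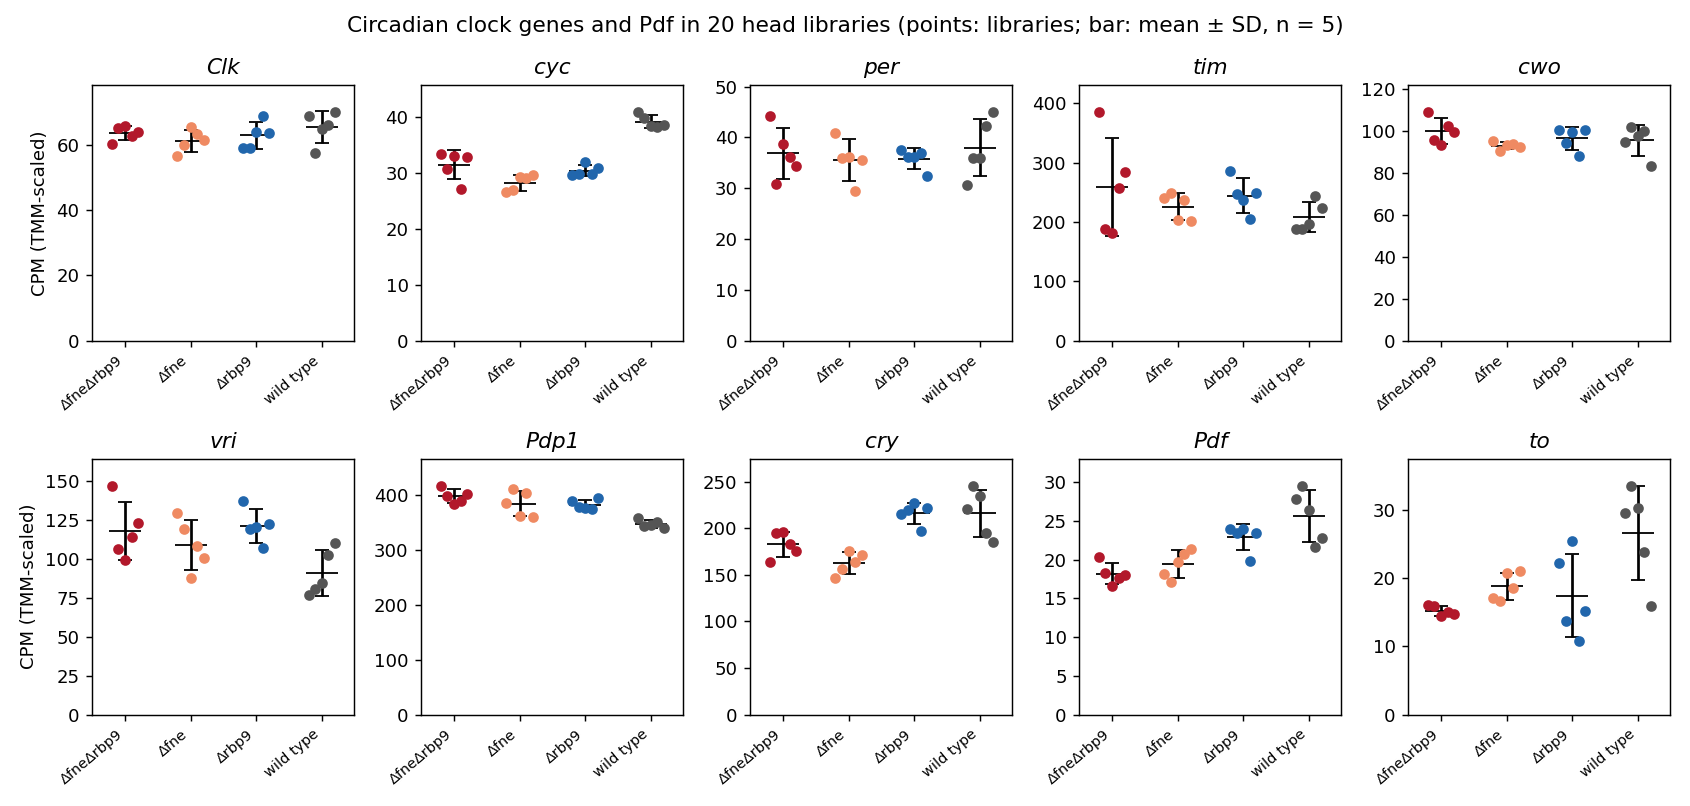
CPM (vertical axes, from 0) of the 10 members in each library, by genotype, with mean and SD (n = 5). The cyc libraries of wild type, at 38.3 to 40.8 CPM, stand above all 15 mutant libraries, while tim and to spread widely within genotypes.

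The activators differed from each other, cyc having fallen in all 3 mutants and Clk in none. Clk (FBgn0023076; dm6 chromosome 3L, 7763233 to 7775603, minus strand, protein coding) was near 60 CPM everywhere: 60.3 to 65.7 CPM in ΔfneΔrbp9, 56.4 to 65.3 in Δfne, 58.8 to 68.8 in Δrbp9 and 57.5 to 69.9 in wild type. Its log2 fold changes against wild type were −0.04, −0.09 and −0.06 (adjusted p 0.592, 0.208 and 0.430, edgeR), with 95% intervals that stayed between −0.20 and 0.07. A protein-coding gene in a Clk intron on the same strand, CG32371, shares no exon bases with it and had 1.76 CPM.

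Its partner cyc (FBgn0023094; 3L, 19813770 to 19815938, minus strand) was the member with the clearest difference. Its 5 libraries read 33.4, 30.7, 33.0, 27.2 and 32.8 CPM in ΔfneΔrbp9, 26.5, 27.0, 29.2, 29.1 and 29.6 in Δfne, 29.6, 29.9, 31.9, 29.9 and 30.8 in Δrbp9, and 40.8, 39.8, 38.3, 38.3 and 38.5 in wild type. Every mutant library lay below every wild-type library. The log2 fold change was −0.31 ± 0.05 (SE) in ΔfneΔrbp9, −0.47 ± 0.05 in Δfne and −0.36 ± 0.05 in Δrbp9 (edgeR, adjusted p 4.19e-05, 3.72e-07 and 1.05e-05), so cyc fell to 80.4%, 72.3% and 77.7% of wild type without reaching the fold change cutoff. In bulk heads, fewer cells of a type and less RNA per cell cannot be told apart.

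The falls of cyc in Δfne and Δrbp9 did not add up in the double mutant. The interaction (ΔfneΔrbp9 minus Δfne minus Δrbp9 plus wild type, on the log2 scale) was 0.52 ± 0.07 (SE; 95% interval 0.37 to 0.66; edgeR, adjusted p 1.59e-05). It was the only member called in that test, which called 8.97% of all genes (16.6% without the fold change cutoff). Against Δfne alone, the double mutant was higher by 0.15 (adjusted p 0.0252), and against Δrbp9 by 0.05 (adjusted p 0.506, edgeR), neither of which passed. Under 26 alternatives the interaction kept an adjusted p below 0.01, but it passed 0.5 in 20 of them, with 0.47 after scaling by total count and 0.48 without ΔfneΔrbp9 replicate 1.

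Among the repressors, per (FBgn0003068; X, 2685580 to 2692780, plus strand), whose protein returns to the nucleus to shut off its own gene, did not pass the test in any mutant. It ranged over 30.8 to 44.2 CPM in ΔfneΔrbp9, 29.4 to 40.8 in Δfne, 32.4 to 37.6 in Δrbp9 and 30.7 to 44.9 in wild type, and its log2 fold changes of −0.04, −0.10 and −0.08 had adjusted p of 0.785, 0.516 and 0.568 (edgeR). The intervals reached from −0.31 to 0.17. The end of per overlaps the end of dyw (daywake, a sleep gene on the opposite strand; X, 2692732 to 2693886) by 49 exon bases, 1.08% of the exon bases of per. The strand setting of the count is not given, so reads in those bases cannot be assigned. dyw, named for this overlap after its values were seen, was at 402.1 ± 57.5 CPM in ΔfneΔrbp9, 532.3 ± 137 in Δfne, 88.9 ± 23.6 in Δrbp9 and 597.2 ± 417 in wild type (SD). In Δrbp9 dyw fell by 2.75 on the log2 scale (adjusted p 6.57e-06, edgeR), with all 5 libraries under the wild-type range of 185 to 1279 CPM.

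tim (FBgn0014396; 2L, 3493986 to 3508119, minus strand), whose protein partners PER and is destroyed in light, was the member with the second widest spread between libraries, after to. Its libraries read 385, 189, 182, 257 and 284 CPM in ΔfneΔrbp9, 241, 249, 203, 237 and 201 in Δfne, 286, 246, 236, 205 and 249 in Δrbp9, and 188, 188, 196, 244 and 223 in wild type. The highest library, ΔfneΔrbp9 replicate 1, was 2.12 times the lowest, ΔfneΔrbp9 replicate 3. The genotypes overlapped, and the log2 fold changes of 0.32, 0.12 and 0.23 ± 0.15 did not pass (adjusted p 0.118, 0.606 and 0.254, edgeR). tim lies 525.6 kb from Rbp9 on the same arm, with 53 tested genes between, and its interval in Δrbp9 ran from −0.09 to 0.56. Its neighbours did differ: CG15414 rose by 0.75 in ΔfneΔrbp9 and 0.70 in Δrbp9 (adjusted p 7.01e-09 and 3.24e-08, edgeR) with 0.16 in Δfne (adjusted p 0.0542), and CG31954 rose by 1.37 in ΔfneΔrbp9 and 1.76 in Δfne (adjusted p 0.0041 and 4.60e-04) with 1.08 in Δrbp9 (adjusted p 0.0218). The genes beside per, HLH3B and Spg7, were not called in any mutant.

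cwo (FBgn0259938; 3R, 10388258 to 10400752, plus strand), a repressor that competes with CLK and CYC at their target sites, held 93.1 to 108.8 CPM in ΔfneΔrbp9, 90.4 to 95.2 in Δfne, 88.0 to 100.4 in Δrbp9 and 83.4 to 101.7 in wild type. Its log2 fold changes were 0.07, −0.04 and 0.01, with intervals between −0.15 and 0.17. None passed the test.

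In the second loop Pdp1 rose slightly in all 3 mutants, while vri did not pass the test. Pdp1 (FBgn0016694; 3L, 7811458 to 7867369, minus strand), an activator of Clk that is also abundant in muscle, read 416, 398, 384, 389 and 403 CPM in ΔfneΔrbp9, 385, 410, 362, 403 and 361 in Δfne, 390, 379, 376, 374 and 394 in Δrbp9, and 357, 343, 346, 351 and 340 in wild type. No mutant library overlapped the wild type. Pdp1 rose by 0.20 ± 0.04 in ΔfneΔrbp9, 0.15 ± 0.04 in Δfne and 0.14 ± 0.04 in Δrbp9 (SE; edgeR, adjusted p 3.01e-04, 0.00509 and 0.0065), that is to 114.5%, 110.6% and 110.1% of wild type. The call of an adjusted p below 0.01 held under all 27 alternatives in ΔfneΔrbp9, but under 20 in Δfne and 19 in Δrbp9. Its 12138 exon bases pool 13 transcripts, and 4 muscle markers summed to 6163 to 7210 CPM in ΔfneΔrbp9, 9349 to 10480 in Δfne and 6757 to 7522 in Δrbp9, against 8828 to 11320 in wild type. Their part in the result was not tested.

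vri (FBgn0016076; 2L, 5288944 to 5311223, plus strand), the repressor of Clk, read 147, 107, 99.1, 114 and 123 CPM in ΔfneΔrbp9, 130, 119, 87.5, 109 and 100.4 in Δfne, 137, 119, 121, 107 and 123 in Δrbp9, and 76.7, 80.8, 84.8, 102.7 and 110.5 in wild type. The lower wild-type libraries were replicates 1 to 3, and wild-type replicates 4 and 5 lay among the mutants. Its log2 fold changes were 0.37 ± 0.12, 0.26 ± 0.12 and 0.41 ± 0.12 (SE; edgeR, adjusted p 0.0188, 0.108 and 0.0104), all short of the cutoff. The value in Δrbp9 reached an adjusted p below 0.01 in 10 of 27 alternatives, among them DESeq2 (0.00394), total count scaling (0.0058) and the fit without wild-type replicate 5, where it was 0.51 (0.00296) and called. In ΔfneΔrbp9 it did so in 2 of 27, and in Δfne in 0.

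**Figure D2:**
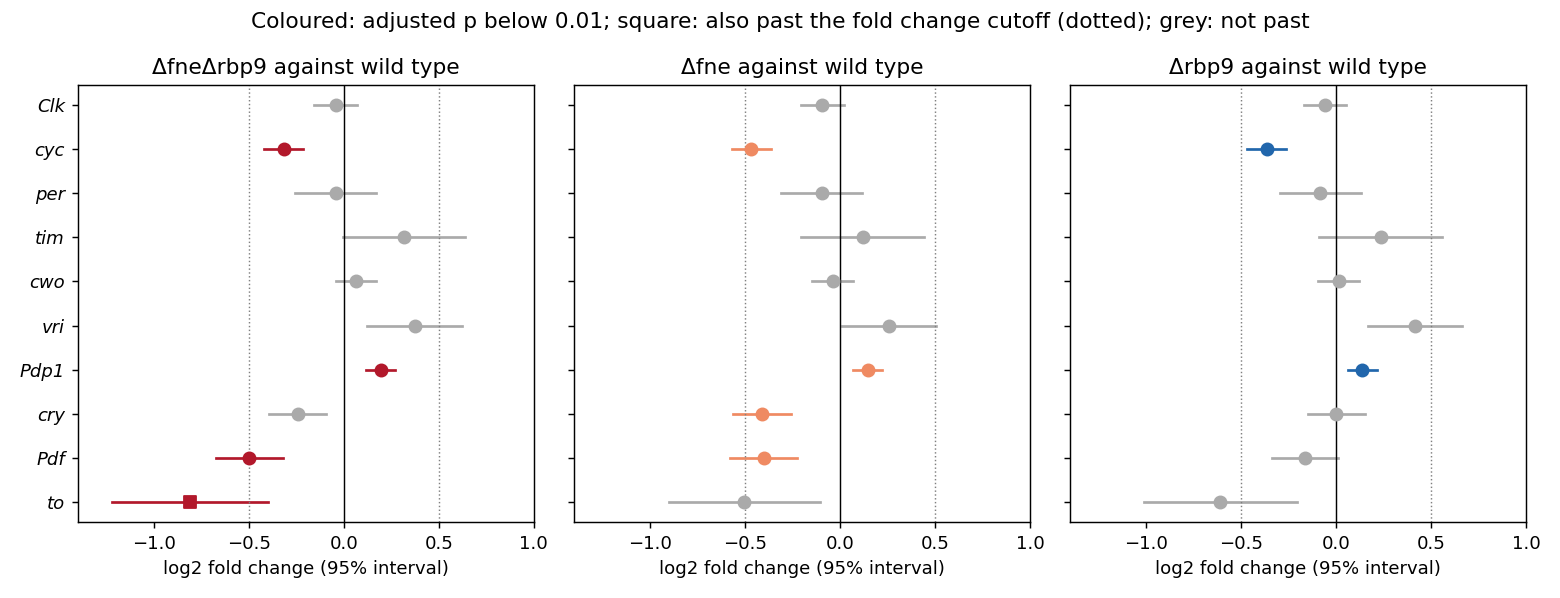
Log2 fold change of each member against wild type (horizontal axis) with its 95% interval, in ΔfneΔrbp9, Δfne and Δrbp9, members ordered by role from top to bottom. cyc lies left of 0 and Pdp1 right of 0 in all 3 panels, and only to in ΔfneΔrbp9 (−0.81) passes both cutoffs.

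The light input gene cry (FBgn0025680; 3R, 19212154 to 19215442, plus strand), which makes the blue light receptor of clock cells, fell in Δfne and not in Δrbp9. It read 164, 195, 196, 182 and 176 CPM in ΔfneΔrbp9, 146, 157, 175, 163 and 171 in Δfne, 215, 220, 227, 197 and 221 in Δrbp9, and 220, 245, 234, 195 and 185 in wild type. All Δfne libraries were under the lowest wild-type library, while Δrbp9 was inside the wild-type range. cry fell by 0.41 in Δfne (SE 0.07; edgeR, adjusted p 1.87e-04) to 75.3% of wild type, and its value in Δrbp9 was 0.00 (interval −0.15 to 0.15). In ΔfneΔrbp9 it was −0.24 (adjusted p 0.0125) against wild type and −0.24 (adjusted p 0.0174) against Δrbp9, where the libraries did not overlap, as for 22.1% of all tested genes in that comparison. Neither passed the cutoff, although 5 of 27 alternatives for the first and 6 for the second did. In wild type the 5 libraries with 220, 245, 234, 195 and 185 CPM of cry had photoreceptor marker sums of 26200, 26870, 26240, 24170 and 24030 CPM. In the same order of replicates, the 7 photoreceptor markers summed to 26980, 25910, 25670, 25900 and 26260 CPM in ΔfneΔrbp9. The sums were 23480, 23650, 25300, 25390 and 25310 in Δfne and 23140, 22820, 22670, 22370 and 22650 in Δrbp9. The library lowest in cry had the highest sum in ΔfneΔrbp9, and the lowest sum in each other genotype. The part of these markers in the cry values was not tested.

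Of the outputs, Pdf fell in ΔfneΔrbp9 and Δfne, and to in ΔfneΔrbp9. Pdf (FBgn0023178; 3R, 26455462 to 26456141, minus strand), the neuropeptide of the lateral clock neurons, read 20.4, 18.4, 16.6, 17.6 and 18.1 CPM in ΔfneΔrbp9, 18.1, 17.1, 19.7, 20.8 and 21.4 in Δfne, 23.9, 23.4, 23.9, 19.9 and 23.4 in Δrbp9, and 27.9, 29.5, 26.5, 21.6 and 22.8 in wild type. No ΔfneΔrbp9 or Δfne library reached the wild-type range, while Δrbp9 overlapped it. Pdf fell by 0.50 ± 0.09 in ΔfneΔrbp9, just short of the fold change cutoff, and by 0.40 ± 0.08 in Δfne (SE; edgeR, adjusted p 1.13e-04 and 0.00105), to 70.9% and 75.7% of wild type. In Δrbp9 it was −0.16 (interval −0.34 to 0.01, adjusted p 0.133). The double mutant was also lower than Δrbp9, by 0.33 (adjusted p 0.00732), in a comparison where 4.66% of all genes were called and 15.1% had an adjusted p below 0.01. That difference held its adjusted p in 17 of 27 alternatives, and lost it with the replicate block (adjusted p 0.0122) and with the roX covariate (adjusted p 0.0128).

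Against Δfne, no member passed in the double mutant. Between these genotypes 6.82% of all genes were called and 19.0% had an adjusted p below 0.01, and no member met either rule (edgeR). An unadjusted p below 0.05 was found for 2 members and for 4113 of the 10544 genes, and DESeq2 called 0 members. For Pdf the difference was −0.09, with an interval from −0.27 to 0.08. The to libraries of ΔfneΔrbp9 lay below all those of Δfne, with a difference of −0.30 that did not pass (adjusted p 0.271, edgeR). In ΔfneΔrbp9 against wild type, Pdf fell short of the fold change cutoff in the main fit and passed it in only 4 of 27 alternatives. It was then −0.55 without wild-type replicate 4, −0.53 without wild-type replicate 5, −0.54 without ΔfneΔrbp9 replicate 1 and −0.50 in a fit of the compared groups alone.

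to (takeout; FBgn0039298; 3R, 25240180 to 25241668, plus strand), a circadian output gene linked to feeding and made in the fat body and antennae, had the largest fold change of the members. Its libraries read 16.2, 15.9, 14.4, 15.1 and 14.7 CPM in ΔfneΔrbp9, 17.1, 16.7, 20.7, 18.6 and 21.0 in Δfne, 22.2, 13.7, 25.5, 10.8 and 15.2 in Δrbp9, and 29.6, 33.5, 30.3, 23.9 and 15.9 in wild type. The 5 ΔfneΔrbp9 libraries were tightly grouped and under 4 of the 5 wild-type libraries, and wild-type replicate 5 was inside the mutant values. to fell by 0.81 ± 0.20 in ΔfneΔrbp9 (SE; edgeR, adjusted p 0.00294), to 57.2% of wild type, with −0.50 in Δfne (adjusted p 0.0535) and −0.61 in Δrbp9 (adjusted p 0.0187).

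The call for to in ΔfneΔrbp9 held under 26 of 27 alternatives. In Δfne and Δrbp9, where to was not called, it became so under 1 and 3 of 27. Without wild-type replicate 2 the ΔfneΔrbp9 value was −0.71 (adjusted p 0.0101) and no longer called. Without wild-type replicate 5 the values were −0.63 in Δfne and −0.73 in Δrbp9 (adjusted p 0.0073 and 0.00264, edgeR), both called. In the order of replicates 1 to 5, wild-type libraries also held 4920, 9486, 8355, 3962 and 3108 CPM of 5 fat body markers and 7155, 17950, 18590, 5454 and 2062 CPM of the yolk proteins Yp1, Yp2 and Yp3. The highest and lowest to libraries of wild type are also among the highest and lowest for these sums. Fat body markers summed to 3862 to 6083 CPM in ΔfneΔrbp9, 2522 to 5976 in Δfne, 3982 to 5538 in Δrbp9 and 3108 to 9486 in wild type, with 4 of the 5 called higher in ΔfneΔrbp9, 3 lower in Δfne and 2 higher in Δrbp9. Their part in the to values was not tested. With the mean log2 CPM of roX1 and roX2, RNAs made in males, as a covariate, the ΔfneΔrbp9 value of to was −0.74 (adjusted p 0.00865).

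The genes whose log2 CPM over the 20 libraries most resembled that of to were bero (Pearson r 0.868), Obp83a, an odorant-binding protein (0.854), and CLIP-190 (0.853). They averaged 141.8, 116.8 and 259.9 CPM in ΔfneΔrbp9, against 174.8, 161.3 and 330.7 CPM in wild type. Beside to on 3R, the related gene Jhbp7 (CG11852) moved the other way: it rose by 0.85, 0.54 and 0.60 in ΔfneΔrbp9, Δfne and Δrbp9 (adjusted p 1.48e-05, 0.00184 and 7.75e-04, edgeR), while RpS27 on the far side was not called in any.

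Levels between genes can be compared only roughly per kb of exon. The exon bases pool all annotated transcripts, 13 for Pdp1 and 10 for tim but 1 each for cyc, cry and Pdf. The order of genes depends in part on that divisor. In wild type, cry was highest at 113.9 ± 13.4 CPM per kb (SD), followed by Pdf at 37.8 ± 4.92, tim at 29.6 ± 3.53, Pdp1 at 28.6 ± 0.559, cyc at 24.1 ± 0.698, to at 21.3 ± 5.54, vri at 19.2 ± 3.10, cwo at 18.8 ± 1.41, Clk at 14.5 ± 1.08 and per at 8.39 ± 1.25. The SD ranges of Pdf and tim, tim and Pdp1, cyc and to, to and vri, and vri and cwo overlapped, so those neighbours are not separated. In ΔfneΔrbp9, cry was still highest, at 96.4 ± 7.14 CPM per kb, and per lowest, at 8.14 ± 1.10.

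The members also differed between libraries of one genotype. The pooled SD of log2 CPM within genotypes was 0.335 for to, 0.263 for tim and 0.202 for vri, at the 94.3, 87.7 and 76.5 percentiles of all tested genes, whose median was 0.12. At the other end Pdp1, at 0.0532, was at the 6.7 percentile, with cyc at 0.077. per, at 0.171, and Pdf, at 0.138, were above the median and cry, at 0.121, near it, while Clk, at 0.0859, and cwo, at 0.0832, were below it.

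Within genotypes, several members moved together. Deviations of log2 CPM from the genotype mean were compared for 45 pairs over 20 libraries (permutation within genotypes, 100000 resamples, Benjamini-Hochberg over the 45). For tim and vri, Pearson r was 0.834 and Spearman rho 0.904 (permutation p 1e-05 for each, the smallest that can be given, adjusted 0.00045), with r 0.793 without the 2 libraries farthest in tim and r between 0.855 and 0.984 within each genotype. For vri and cry, r was −0.759 and rho −0.770 (permutation p 0.00114 and 0.00132, adjusted 0.0128 and 0.0149), −0.653 without the farthest 2, and of the opposite sign (0.561) in Δrbp9. All members share the same libraries and scaling, and how often other gene pairs move together in these libraries was not tested.

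Pdf and to also moved together, with r 0.683 and rho 0.744 (permutation p 0.00053 and 0.00011, adjusted 0.0119 and 0.00248), 0.649 without the farthest 2 and r from 0.772 to 0.869 within genotypes. In all, 7 of the 45 pairs had an adjusted p below 0.05 for r, 5 of them positive and 2 negative. The others were cry and to, tim and cry, tim and Pdp1, and cwo and to, whose r of 0.699 dropped to 0.380 without the farthest 2. Of these, only tim and cry also passed for rho (permutation, adjusted p 0.0149), with 0.0795 for cry and to, 0.0609 for tim and Pdp1 and 0.16 for cwo and to. Within genotypes r had the opposite sign for cry and to in ΔfneΔrbp9 (−0.428), tim and cry in Δrbp9 (0.565) and tim and Pdp1 in wild type (−0.147).

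**Figure D3:**
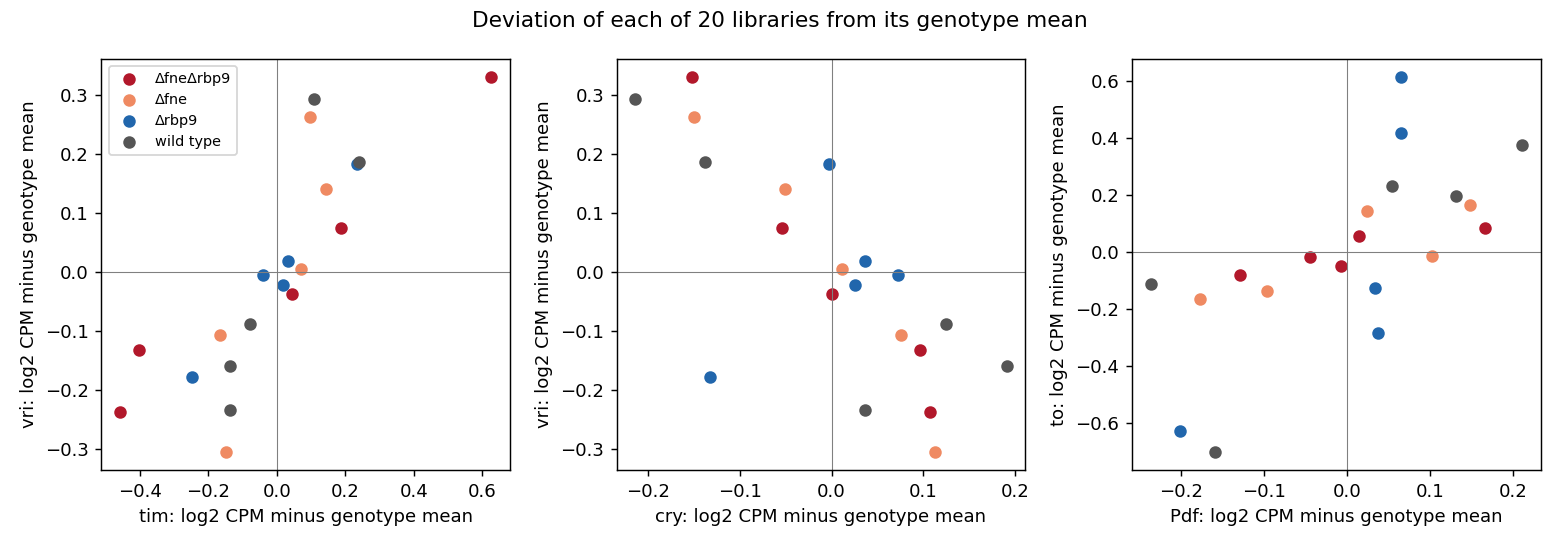
Deviation of each of 20 libraries from its genotype mean of log2 CPM for tim against vri, cry against vri and Pdf against to, coloured by genotype. The points rise from lower left to upper right for tim and vri (r 0.834) and for Pdf and to (r 0.683), and run downward for cry and vri (r −0.759).

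Libraries can also be described by the mean log2 CPM of per, tim, vri and Pdp1 minus that of Clk and cry, cwo left out. Not all of these genes moved as one within genotypes. Pearson r was 0.834 for tim and vri, but −0.149 for Clk and cry and −0.187 for per and Pdp1. By itself, Pdp1 had risen in all 3 mutants. The difference of the means was 0.42 ± 0.28 in ΔfneΔrbp9, 0.44 ± 0.21 in Δfne, 0.29 ± 0.11 in Δrbp9 and 0.08 ± 0.20 in wild type (SD, n = 5 each). The libraries read 0.85, 0.15, 0.17, 0.41 and 0.49 in ΔfneΔrbp9, 0.71, 0.58, 0.21, 0.38 and 0.31 in Δfne, 0.46, 0.32, 0.22, 0.18 and 0.24 in Δrbp9, and −0.13, −0.02, −0.04, 0.29 and 0.29 in wild type. Wild-type replicates 4 and 5 were inside the range of the mutants and replicates 1 to 3 below all of them. No test is attached to this difference, since the genes that enter it were chosen with their values known.

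**Figure D4:**
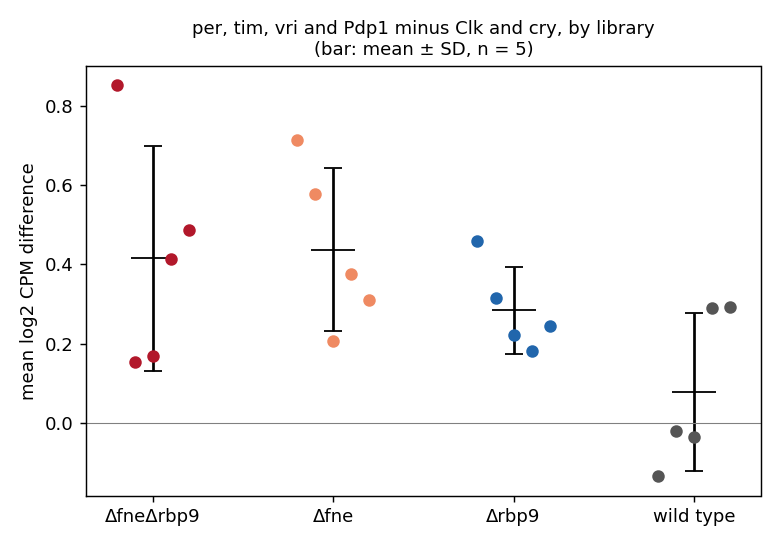
Mean log2 CPM of per, tim, vri and Pdp1 minus that of Clk and cry (vertical axis) in each library, by genotype, with mean and SD. All 15 mutant libraries are between 0.15 and 0.85, and the wild type spans −0.13 to 0.29.

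Among other clock components, the kinase list and the RNA regulator list had no calls. Over all tested genes, 9.53% were called in ΔfneΔrbp9 and 8.04% in each single mutant. In lists of 12 and 10 genes, 0 calls is not far from those shares. Of 12 tested kinases, phosphatases and turnover factors, among them dco, sgg and CkIIalpha that phosphorylate PER and TIM, none was called in any of the 3 mutants against wild type (edgeR, with 3, 4 and 5 at an unadjusted p below 0.05 in ΔfneΔrbp9, Δfne and Δrbp9, and 0 called by DESeq2). Their median log2 fold changes were 0.00, −0.02 and −0.03. Over all 10544 tested genes, 4703, 4265 and 4719 had an unadjusted p below 0.05 in these comparisons (edgeR). jet, named after its values were seen, brings light-dependent turnover of TIM and was at −0.23 in ΔfneΔrbp9 (adjusted p 0.0012), −0.16 in Δfne (adjusted p 0.0193) and −0.19 in Δrbp9 (adjusted p 0.00578, edgeR). Of 10 RNA regulators of the clock, such as tyf, Atx2 and Fmr1, none was called either, with 2, 2 and 3 at an unadjusted p below 0.05 and none by DESeq2.

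Peptides and receptors of the clock network differed in both directions. Of 25 tested, 3 were called in ΔfneΔrbp9, where 9.53% of all genes were, all of them higher: the receptor SIFaR by 1.08 and its peptide SIFa, which promotes sleep, by 0.54 (adjusted p 2.43e-09 and 3.54e-05, edgeR), and CNMa, a peptide of dorsal clock neurons, by 1.17 (adjusted p 0.00737). By adjusted p alone, a rule that 25.0% of all genes met, 5 of the 25 rose and 3 fell in ΔfneΔrbp9. The falls were Dh44 (−0.41), ITP (−0.28) and NPF (−0.37), named here after their values were seen. CNMa was the 1 called in Δfne (8.04% of all genes), higher by 1.51 (adjusted p 9.54e-04). Its levels were very low, with means of 0.97 CPM in ΔfneΔrbp9, 1.27 in Δfne, 0.72 in Δrbp9 and 0.44 in wild type. The ΔfneΔrbp9 libraries of CNMa, at 0.59 to 1.29 CPM, overlapped those of wild type, at 0.25 to 0.63. No gene of the list was called in Δrbp9 (edgeR, and 0 by DESeq2). By an adjusted p below 0.01, 10 of the 25 fell, a rule by which 22.9% of all genes differed in either direction. An unadjusted p below 0.05 was found for 19 of the 25 and for 4719 of all 10544 genes (edgeR). The list median was −0.17 beside 0.00 over all genes.

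Among channels and light input genes, 1 of each list was called against wild type, in 1 mutant only. Over all genes, 9.53% were called in ΔfneΔrbp9 and 8.04% in each single mutant, so counts in lists this small are near those shares. Of 12 channels and factors that set firing in clock neurons or sleep, the potassium channel Irk1 was called in Δrbp9, lower by 0.55 (adjusted p 9.49e-08, edgeR), with −0.21 in ΔfneΔrbp9 (adjusted p 0.00305) and 0.16 in Δfne (adjusted p 0.0211). The double mutant was higher than Δrbp9 by 0.34 (adjusted p 7.66e-05). Of 8 light input genes, ort, a histamine receptor of the visual pathway, was called in ΔfneΔrbp9, higher by 0.62 than wild type and by 0.62 than Δrbp9 (adjusted p 1.67e-05 and 4.21e-05, edgeR). phr, a photolyase related to cry, was at 28.0 ± 0.583 CPM in ΔfneΔrbp9, 1.20 ± 0.252 in Δfne, 28.3 ± 1.94 in Δrbp9 and 30.3 ± 3.14 in wild type (SD). Its log2 fold change was −4.67 in Δfne against wild type, and 4.55 in ΔfneΔrbp9 against Δfne (adjusted p 4.70e-18 and 1.43e-17, edgeR).

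Of 8 tested downstream genes known to cycle in heads, 2 were called lower in ΔfneΔrbp9 (9.53% of all genes were called), 2 lower and 1 higher in Δfne (8.04%), and 4 lower in Δrbp9 (8.04%), with medians of −0.28, −0.44 and −0.70. CG2121 was called in all 3 mutants, lower by 1.51, 0.65 and 1.35 (adjusted p 2.61e-14, 7.22e-09 and 1.82e-13, edgeR). Cyp4d21, a cytochrome P450, was called at −2.52 in ΔfneΔrbp9 and −1.58 in Δrbp9 (adjusted p 3.49e-04 and 0.00959). cu, at −1.09, and Ugt35b, at −1.26, were called in Δrbp9 (adjusted p 0.00126 and 1.42e-12), and trpl, at −0.60, and CG10513, at 0.54, in Δfne (adjusted p 2.38e-06 and 0.00537).

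The takeout family had calls in both directions. Of 9 relatives of to tested, 3 were called higher and 1 lower in ΔfneΔrbp9, 2 and 2 in Δfne, and 2 and 0 in Δrbp9, beside 9.53%, 8.04% and 8.04% of all genes called in either direction. Jhbp5 (CG10407) rose by 1.42 in ΔfneΔrbp9 and 1.05 in Δrbp9, and fell by 1.56 in Δfne (adjusted p 1.24e-09, 1.18e-07 and 1.36e-09, edgeR). Jhbp15 (CG17279) rose by 0.99 and Jhbp3 (CG14661) fell by 0.70 in ΔfneΔrbp9, while in Δfne Jhbp11 (CG17189) rose by 0.59 and Jhbp12 (CG13618) fell by 1.01.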

How the data were processed

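Raw counts per gene in 20 libraries were used as deposited. Per the labels and the study's methods, the authors made them from stranded total RNA libraries (TruSeq Stranded total RNA Gold, 725 ng of RNA) with STAR and featureCounts (Subread) on dm6, with Ensembl release 96 and the snakePipes RNA-seq module. Versions, strand and multi-mapping settings are not given in the sources used here. A table of the authors' own DESeq2 comparison of ΔfneΔrbp9 with wild type (base mean, log2 fold change, its error, statistic and p-values) was not used. Symbols and coordinates came from Ensembl release 115, which uses the same assembly.

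One fit of all 20 libraries was made with edgeR 4.0.16 (limma 3.58.1, R 4.3.3): TMM scaling, genes with a mean normalized count above 10, quasi-likelihood F-tests, two-sided, Benjamini-Hochberg adjustment over 10544 genes, and the study's cutoffs (adjusted p below 0.01, absolute log2 fold change above 0.5). CPM is the count per 1000000 of the total times its TMM factor, and per kb refers to exon bases of all transcripts. Among 40 pairs of libraries within genotypes, chi-square per degree of freedom was at least 5.46, so replicates differed by more than counting noise. Scripts were tested on simulated data. Correlations used scipy 1.17.1 and Python 3.11.15.

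Alternatives were total count scaling, DESeq2 size factors, DESeq2 1.42.0, no count filter, only the compared groups, a replicate block, a roX covariate, other call rules and leaving out each library. The named genes were the 10 members, called genes of the lists (kinases and turnover, RNA regulators, network peptides and receptors, firing and sleep channels, light input, cycling outputs, takeout family, photolyases), the tested neighbours of per, tim and a called member, 3 genes most like a called member, and fne, Rbp9 and w. jet, dyw, Dh44, ITP and NPF are additional and were chosen after their values were seen. Members and lists were chosen with earlier results of these data known. slmb and Cyp6a21 were not analysed here, and phr6-4 did not pass the count filter.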

Additional observations from a re-analysis of the deposited data

Results flagged for a closer look

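In 40 groups of 5 libraries (10 members in 4 genotypes), 1 had a library far from the rest. Pdf in Δrbp9 replicate 4 was at 19.89 CPM, against 23.4 to 23.92 CPM in the other 4 Δrbp9 libraries, and the gap was 0.872 of the whole range (Dixon's critical value for 5 samples is 0.71). Chance alone marks about 1 in 20 groups. Without that library the Pdf difference of Δrbp9 from wild type was −0.12 (edgeR, adjusted p 0.291).

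The differences of cyc from wild type in Δfne and Δrbp9 did not add up in ΔfneΔrbp9. Here too, the mutations and differences of genetic background cannot be told apart. The interaction was 0.5168 on the log2 scale (edgeR, adjusted p 1.59e-05), with cyc lower in 5 of 5 libraries of each mutant than in any wild-type library.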

How the results depend on the processing

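Of 1610 values of single members under alternatives, 1594 kept their side of the call rule, 9 gained it, 7 lost it and 0 reversed. The number of members called in ΔfneΔrbp9 against wild type was 1, 2 with only the compared groups in the fit, and 0 to 2 when single libraries were left out; with no fold change cutoff it was 4. For Δfne it was 0, 0 to 1 without single libraries, and 4 with no fold change cutoff. For Δrbp9 it was 0, 1 by DESeq2, 1 at an adjusted p below 0.05, 0 to 2 without single libraries, and 2 with no fold change cutoff. For ΔfneΔrbp9 against Δrbp9 it was 0, and 1 with no fold change cutoff. The interaction had 1, 0 with total count scaling, and 0 to 1 without single libraries: cyc then fell under the cutoff at 0.49 without wild-type replicate 1, 0.50 without Δfne replicate 1 or 2, 0.48 without ΔfneΔrbp9 replicate 1 and 0.50 without ΔfneΔrbp9 replicate 3. For to in Δrbp9, DESeq2 gave −0.61 and leaving out Δrbp9 replicate 3 gave −0.78, both called; the cause was not tested.

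Replicate numbers are shared between genotypes, but same-numbered libraries deviated together (r above 0.1) in 8 of 30 pairs only, with r from −0.396 to 0.539, and 6 of 20 libraries were closest to their own number, so the numbers were not treated as a pairing. With the replicate block, 1 member was called in ΔfneΔrbp9 against wild type, as without it. By adjusted p below 0.01 alone (edgeR), the replicate block gained cry in ΔfneΔrbp9 against wild type (−0.24, adjusted p 0.00683) and against Δrbp9 (−0.24, 0.00973) and vri in Δrbp9 (0.41, 0.00905), and lost Pdf in ΔfneΔrbp9 against Δrbp9 (−0.33, 0.0122). Over all genes the block left 993 calls against 1005 there. With 5 libraries a group, scattered genes such as tim and to have wide intervals, and an absent call does not show that levels were equal.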
